A study of Mus musculus with 8 samples.

Results

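Intraepithelial T cells are lymphocytes that sit between the epithelial cells of the gut wall, and 10 genes that mark them were followed here in crypts of irradiated mice. The genes are Cd3e, Cd3g, Cd8a, Cd8b1, Cd4, Lck, Itgae, Gzma, Gzmb and Cd7, taken by symbol from a table of 17634 genes, and all 10 were found and passed the filter on low counts. The 8 libraries were RNA of small intestinal crypts from C57BL/6N mice 3 days after irradiation, 4 from wild-type mice (WT) and 4 from miR-29ab1-/- mice (called knockout or KO here). Irradiation was common to both groups, and genotype is what was compared. The labels give neither the radiation dose, the age of the mice nor whether the T cells of the knockout lack the locus too.

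T cells recognise antigen through a receptor that signals via the CD3 chains, and the kinase Lck starts that signal at the co-receptors CD4 and CD8. In the small intestine most intraepithelial T cells carry CD8, many of them as a pair of alpha chains rather than an alpha and a beta chain, and are held against epithelial E-cadherin by the integrin that Itgae helps to form. They store granzymes, proteases that kill target cells. Their survival and position depend on epithelial signals such as interleukin 15 and butyrophilin-like proteins.

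The deleted locus, on the minus strand of chromosome 6, makes miR-29a and miR-29b-1. The mature sequences below are shown because their seed (bases 2 to 8, in capitals) is what a target must match. They come from RefSeq on GRCm38.p6, and all share the seed AGCACCA. miR-29b-3p is also made by Mir29b-2, which lies with Mir29c on chromosome 1, outside the deleted locus.
miR-29a-3p: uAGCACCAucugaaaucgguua
miR-29b-3p: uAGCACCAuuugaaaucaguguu
miR-29c-3p: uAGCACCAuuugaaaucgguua

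Of the 10 genes only Cd7 held a match to this seed (TGGTGCT) in its longest 3′ UTR of GENCODE M21, against 13.0 percent of 20981 genes with an annotated 3′ UTR. Cd7 lies on the minus strand of chromosome 11 at 121036747 to 121039418 (GRCm38), and the site is at bases 117 to 123 of its UTR of 296 bases. In its surroundings the site is in capitals.
Cd7 site: aattccccctTGGTGCTtctgggtggg
A match is a description of the letters and not a measure of targeting.

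Libraries held 9481191 to 16231089 counts. Of 12908 genes tested, 47.3 percent were called different between genotypes (edgeR quasi-likelihood test, Benjamini-Hochberg adjusted p under 0.05), 3129 higher and 2976 lower in the knockout, or 2089 higher and 4011 lower with total-count scaling. That scaling moved the table's median log2 fold change from 0.03 to −0.23. Epithelial identity was clear: the 11 markers of small intestinal epithelium summed to 11940 to 16096 CPM (counts scaled to a common library size with TMM factors) in wild type and 16082 to 27644 CPM in knockout mice. Replicate 4 of both genotypes had 3 and 1 counts in sum over 4 Y-linked genes, against 1285 to 2061 in the other 6 libraries. A pair of libraries stood apart in T cell transcripts, knockout replicate 3 above and wild-type replicate 4 below all others, and results are given with and without them.

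None of the 10 T cell genes was called different between genotypes, although all 10 means were higher in the knockout. At an unadjusted p under 0.05 edgeR gave 1 gene, Cd8b1, and DESeq2 called that gene alone. In the edgeR test 24.2 percent of all genes were called higher in the knockout and 23.1 percent lower. Fitted fold changes ran from 2.09-fold for Gzma to 2.96-fold for Cd4, with a median log2 fold of 1.33 against 0.03 over all tested genes, and edgeR adjusted p-values from 0.0814 to 0.275. Wild-type and knockout levels overlapped in all 10, while 45.4 percent of tested genes had groups that did not overlap, 22.7 percent with the knockout higher. The spread within a genotype was larger than these folds: the highest library exceeded the lowest by 4.33-fold to 11.9-fold within wild type and by 4.85-fold to 10.6-fold within the knockout.

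**Figure D1:**
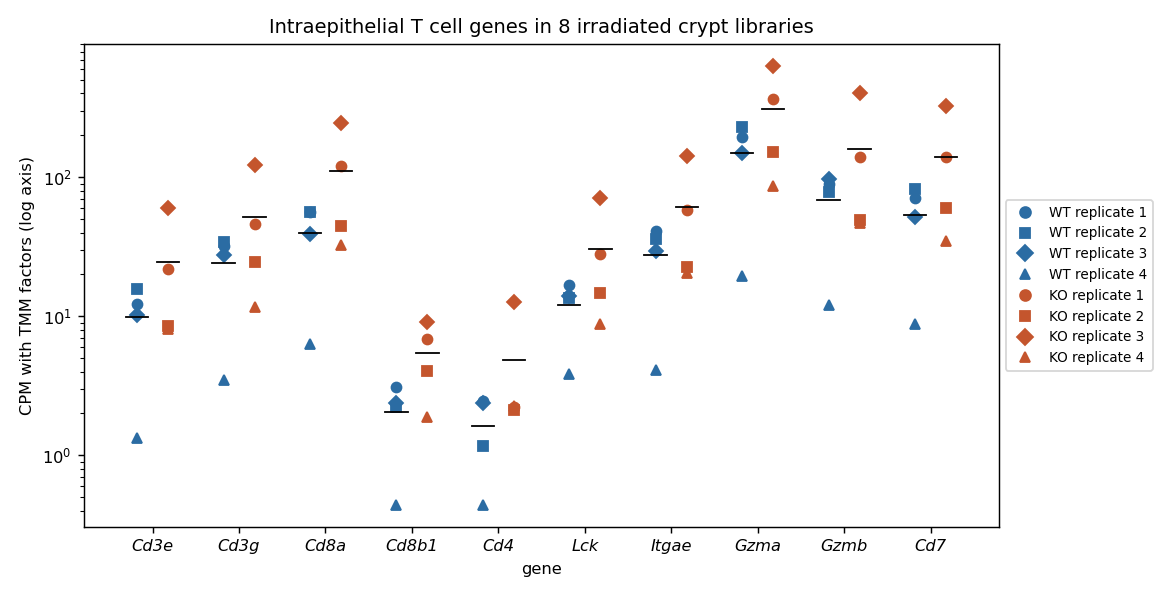
Level of each of the 10 genes in each library, as CPM with TMM factors on a log axis; blue is wild type, orange is knockout, the marker shape is the replicate number and the black line is the group mean (n = 4). For every gene the highest point is knockout replicate 3 and the lowest is wild-type replicate 4, and the other libraries of the groups overlap.

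The CD3 chains, the invariant signalling part of the T cell receptor, were measured by Cd3e and Cd3g. Cd3g stood at 31.9, 33.9, 27.6 and 3.47 CPM in wild-type replicates 1 to 4 and at 46.3, 24.5, 123 and 11.6 CPM in knockout replicates 1 to 4. Replicates 2 and 4 of the knockout lay below wild-type replicates 1 to 3, so the groups overlapped. Its means were 24.2 ± 14.1 in wild type and 51.3 ± 49.9 CPM in knockout mice (SD, n = 4 per group), a log2 fold of 1.09 with a standard error of 0.78 (edgeR adjusted p = 0.275). The 95 percent interval, from −0.67 to 2.85 on the log2 scale, covers both a lower and a much higher level in the knockout. Cd3e followed the same course, at 12.3, 15.8, 10.3 and 1.32 CPM in wild type and 21.8, 8.49, 59.9 and 8.05 CPM in knockout mice. Its log2 fold was 1.32 with a standard error of 0.79 (edgeR adjusted p = 0.196).

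The co-receptor genes differ in what they mark, since CD4 marks helper T cells and CD8 cytotoxic T cells. Cd8a, which encodes the alpha chain, was at 56.2, 56.1, 38.9 and 6.33 CPM in wild type and at 119.8, 44.8, 243 and 32.7 CPM in knockout mice. Knockout replicates 1 and 3 were above every wild-type library, and replicates 2 and 4 were not. The means were 39.4 ± 23.5 and 110.1 ± 96.7 CPM (SD, n = 4 per group; log2 fold 1.49, edgeR adjusted p = 0.129). Cd8b1, the beta chain gene, rests on 8 to 91 counts per library, and stood at 3.10, 2.24, 2.39 and 0.44 CPM in wild type and 6.86, 4.07, 9.07 and 1.87 CPM in knockout mice. Here 3 of the 4 knockout libraries exceeded all wild-type libraries, and knockout replicate 4 was below wild-type replicates 1 to 3. It came closest to a call, with a log2 fold of 1.43, a standard error of 0.61 and an edgeR adjusted p of 0.0814. Cd4 had 8 to 127 counts, at 2.47, 1.17, 2.39 and 0.44 CPM in wild type and 2.23, 2.12, 12.7 and 2.25 CPM in knockout mice. Apart from knockout replicate 3, every knockout library lay within the wild-type range; without that library the log2 fold of 1.56 became 0.44 (edgeR adjusted p = 0.520).

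Lck, the kinase bound to CD4 and CD8, was at 16.7, 13.5, 13.9 and 3.85 CPM in wild type and 27.8, 14.6, 70.6 and 8.79 CPM in knockout mice (log2 fold 1.35, edgeR adjusted p = 0.116). Cd7, a surface protein of T and natural killer cells, was at 70.4, 82.6, 52.1 and 8.86 CPM in wild type and 138.6, 60.1, 324 and 34.7 CPM in knockout mice (log2 fold 1.38, edgeR adjusted p = 0.166). Both showed the course of Cd3g, with knockout replicates 2 and 4 inside the wild-type range.

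Itgae, the alpha E integrin chain, was at 41.2, 36.1, 29.5 and 4.07 CPM in wild type and 57.8, 22.5, 142 and 20.3 CPM in knockout mice (log2 fold 1.13, edgeR adjusted p = 0.241). Knockout replicates 2 and 4 again lay within the wild-type range. The gene spans bases 73090583 to 73147446 of chromosome 11 (plus strand, GENCODE M21 on GRCm38), and Haspin, a mitotic kinase gene of the minus strand, lies inside it. Haspin had 25.4 ± 1.47 CPM in wild type and 17.9 ± 9.65 CPM in knockout mice (SD, n = 4). The strandedness of the counting is not given in the sources used here. Only gene spans were compared, so whether exons overlap and reads of the pair could be mixed was not tested. Antisense genes also overlap Cd3e and Cd7 in that annotation.

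The granzymes were the most abundant effector transcripts among the 10. Gzma, a tryptase, stood at 194, 230.0, 148 and 19.5 CPM in wild type and 366, 153, 631 and 86.0 CPM in knockout mice (log2 fold 1.06, edgeR adjusted p = 0.270). Gzmb, which cuts caspases in target cells, was at 88.8, 77.9, 96.6 and 11.9 CPM in wild type and 140.0, 49.6, 402 and 46.6 CPM in knockout mice (log2 fold 1.21, edgeR adjusted p = 0.230). For both genes knockout replicates 1 and 3 exceeded all wild-type libraries and the other knockout libraries did not. Gzmb has close relatives in its gene cluster, and reads shared with them are possible.

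Compared per length, in the authors' FPKM (fragments scaled by gene length and library size), Gzma was highest with a median of 250.4 over the 8 libraries, followed by Cd7 (73.5), Gzmb (67.6), Cd3g (36.6), Cd8a (17.5), Cd3e (9.47), Itgae (9.72), Lck (7.77), Cd8b1 (2.35) and Cd4 (0.67), in the order of mean log2 FPKM. Gzma exceeded Cd7, and Cd3g exceeded Cd8a, in 8 of 8 libraries. Cd7 and Gzmb were in this order in 7 of 8 libraries, Cd3e and Itgae in 5, and Itgae and Lck in 6, so the order within those pairs is not steady. Cd4 was lowest in 8 of 8 libraries.

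Same-numbered libraries were compared next. Over all tested genes their deviations from the group means correlated at 0.35 to 0.535, and those of differently numbered libraries at −0.516 to 0.496. Wild-type replicate 2 correlated more with knockout replicate 1 (0.496) than with knockout replicate 2 (0.35). Pairing by number is thus an assumption, also in the block fit below. Between knockout and wild type of the same number, Cd3e differed by 0.82, −0.90, 2.54 and 2.61 on the log2 CPM scale in numbers 1 to 4. For Cd8a the differences were 1.09, −0.32, 2.64 and 2.37, and for Gzma 0.91, −0.59, 2.09 and 2.14. Numbers 3 and 4 thus carried the large differences, and number 2 was lower in the knockout for 7 of the 10 genes. Number 3 combined the highest knockout library with a wild-type one near replicates 1 and 2, and number 4 the lowest wild-type library with a knockout library that was itself low.

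**Figure D2:**
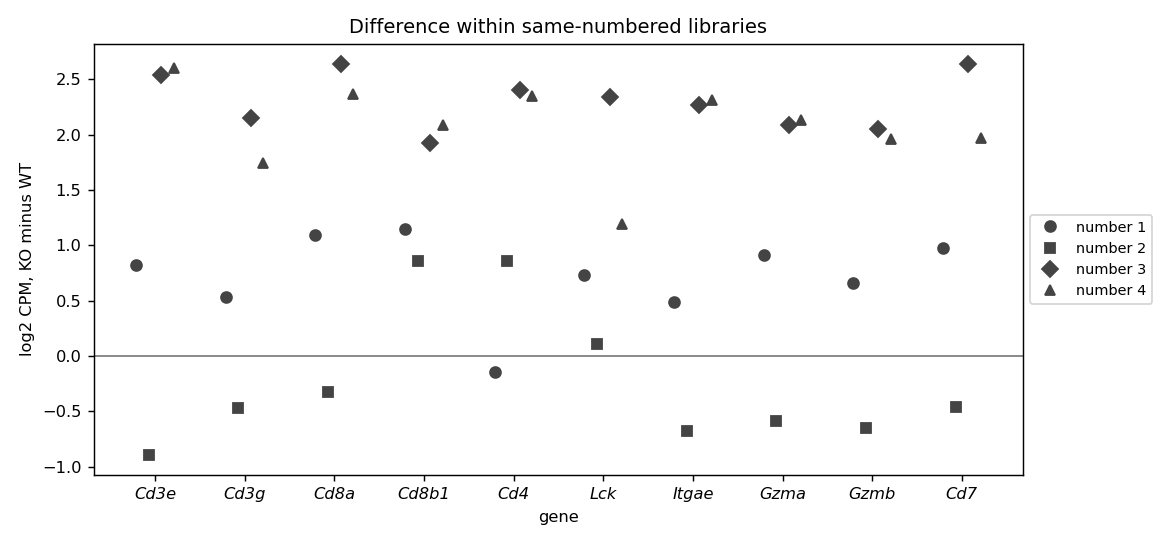
Difference in log2 CPM between the knockout and the wild-type library of the same replicate number, for each of the 10 genes; the marker shape is the number. Numbers 3 and 4 lie at 1.19 to 2.64 for all genes, number 1 lies above 0 for all but Cd4, and number 2 lies below 0 for 7 genes.

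With the replicate number as a block in the fit, 4 of the 10 genes were called, all higher in the knockout. In that fit 56.0 percent of all tested genes were called, 28.4 percent higher. Cd8b1, higher in the knockout in 4 of 4 numbers, had a log2 fold of 1.46 (edgeR adjusted p = 0.00539) and Lck, also higher in 4 of 4, one of 1.11 (edgeR adjusted p = 0.0298). Cd8a reached 1.44 (edgeR adjusted p = 0.0386) and Cd4 1.37 (edgeR adjusted p = 0.0486), each higher in 3 of 4 numbers. The other 6, among them Cd3e and Cd3g, were not called with the block (edgeR adjusted p from 0.0559 to 0.112). What a number stands for is not stated in the labels. Number 4, low in most of the 10 genes in both genotypes, was also the number with 3 and 1 Y-linked counts. Whether sex had a part in these levels was not tested.

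**Figure D3:**
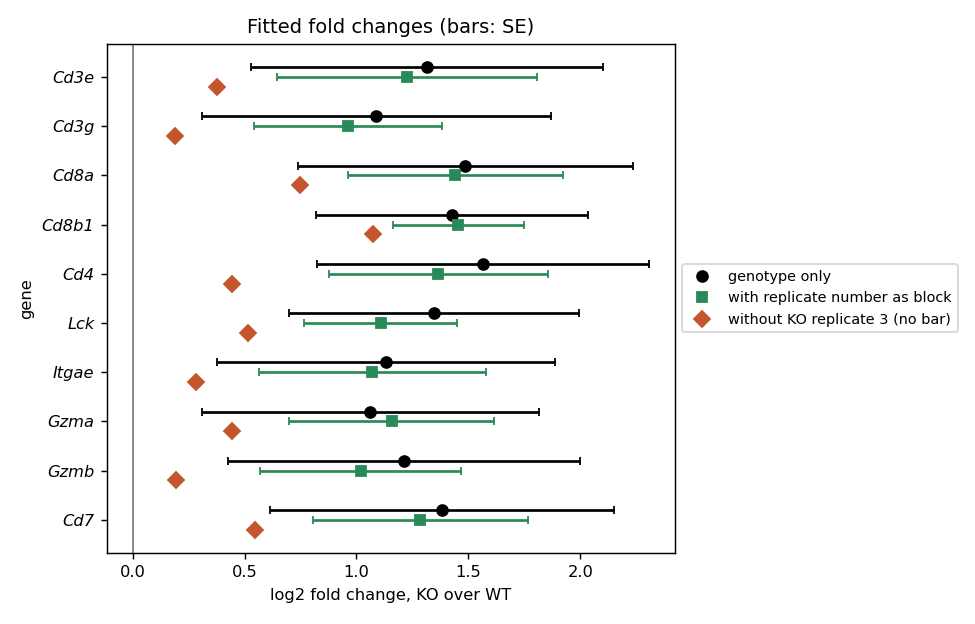
Fitted log2 fold change of knockout over wild type for each of the 10 genes with genotype as the sole term (black), with the replicate number as a block (green; bars are standard errors) and without knockout replicate 3 (orange, no bar). Leaving out that library lowers all 10 estimates, to between 0.19 and 1.07. It is the highest library for all 10 genes, so the direction of this change was fixed by the choice.

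One library carried much of the fitted difference. Knockout replicate 3 and wild-type replicate 4 were singled out as the highest and the lowest library of all 10 genes. Leaving out either was therefore bound to lower the estimates, and only the size of the drop was open. Without knockout replicate 3 the median log2 fold of the 10 genes went from 1.33 to 0.44, with 0 of 10 called by edgeR (0 also at an unadjusted p under 0.05) where 48.8 percent of all genes were called and 24.5 percent were called higher. Cd3g then stood at 0.19, Gzmb at 0.20 and Cd8b1 at 1.07. Without wild-type replicate 4 the median was 0.98 and edgeR again called 0 (0 also at an unadjusted p under 0.05), where 38.2 percent of all genes were called in either direction. Without replicate 4 of both genotypes Cd8b1 alone was called (log2 fold 1.31, edgeR adjusted p = 0.0217), where 36.4 percent of all genes were called and 17.9 percent were called higher. It was also called without knockout replicate 4 alone (1.66, edgeR adjusted p = 0.0382), where 45.3 percent of all genes were called and 21.9 percent were called higher. DESeq2, which called 42.2 percent of the genes it tested, gave Cd8b1 a log2 fold of 1.42 (DESeq2 adjusted p = 0.0426). In bulk RNA fewer T cells and less RNA per T cell cannot be told apart, here and below.

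Ratios of counts within a library need no scaling between libraries. Over the 8 libraries 4 of the 5 ratios tested spanned 1.32-fold to 4.78-fold, and the ratio to an epithelial gene spanned more. The sum of Gzma and Gzmb was 6.40, 6.19, 6.46 and 6.54 times the sum of Cd3e and Cd3g in wild type, and 7.43, 6.14, 5.64 and 6.73 times in the knockout. All 8 libraries thus lay within 1.32-fold of each other, while the sum of Cd3e and Cd3g over Epcam, an epithelial adhesion gene, spanned 28.4-fold. The granzyme ratio had a log2 difference between genotypes of 0.01, within the spread of either group (exact permutation test, two-sided, p = 0.914; 0.943 adjusted over the 5 ratios tested; higher in the knockout in 2 of 4 numbers).

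Cd8b1 came to 5.57, 4.08, 6.22 and 7.36 percent of Cd8a counts in wild type and to 5.76, 9.16, 3.75 and 5.85 percent in the knockout, with wild-type values inside the knockout range (log2 difference 0.04; exact permutation p = 0.943, the same after adjustment). Cd4 came to 5.66, 2.43, 6.38 and 9.71 percent of summed Cd3e and Cd3g in wild type and to 3.34, 6.56, 6.95 and 11.6 percent in the knockout (log2 difference 0.26; exact permutation p = 0.600, adjusted 0.943). Knockout replicate 3, the library with the highest Cd4 level, did not stand out in this ratio. These percentages compare counts of genes of unequal length, and so are no shares of cells.

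Summed Cd3e and Cd3g were 0.997, 1.33, 1.06 and 0.552 times Ptprc, the leukocyte surface gene for CD45, in wild type and 1.05, 1.22, 1.16 and 0.981 times in the knockout. Wild-type replicate 4 was the lowest, and the other 7 libraries lay between 0.981 and 1.33 (log2 difference 0.23; exact permutation p = 0.629, adjusted 0.943). Relative to Epcam they were 3.55, 3.59, 3.90 and 0.539 percent in wild type and 2.66, 1.53, 15.3 and 1.24 percent in the knockout. On that scale 3 of the 4 knockout libraries were below wild-type replicates 1 to 3, and only replicate 3 was above them (log2 difference 0.38; exact permutation p = 0.771, adjusted 0.943). Epcam itself rose 1.67-fold, from 1125 ± 230.3 to 1875 ± 602 CPM (SD, n = 4; edgeR adjusted p = 0.0403), so the denominator differed between genotypes.

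**Figure D4:**
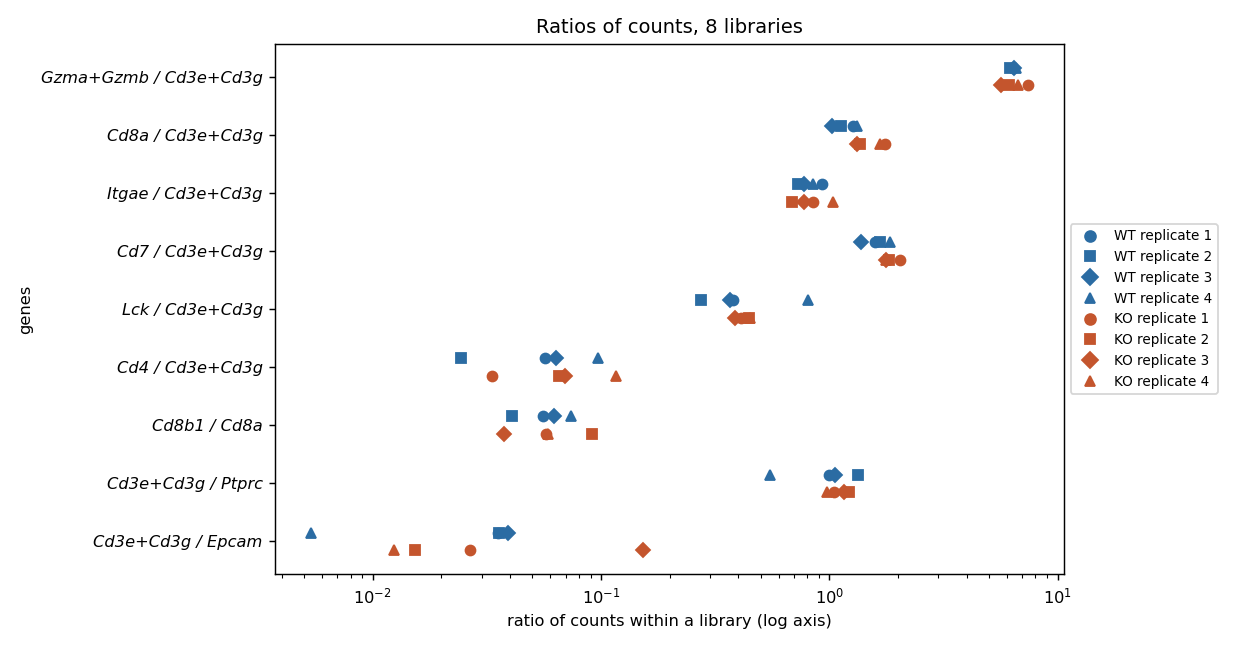
Ratios of counts within each library on a log axis; blue is wild type, orange is knockout and the marker shape is the replicate number. The granzyme ratio spans 1.32-fold over the 8 libraries and the ratio to Epcam spans 28.4-fold.

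Further ratios to summed Cd3e and Cd3g were computed after the levels had been seen and are given without a test. Cd8a was 1.27, 1.13, 1.03 and 1.32 times that sum in wild type and 1.76, 1.36, 1.33 and 1.67 times in the knockout, so the groups did not overlap, by a narrow margin. Itgae spanned 0.726 to 0.931 times in wild type and 0.684 to 1.03 in the knockout, and Cd7 1.37 to 1.85 and 1.76 to 2.04. Lck was 0.273 to 0.378 times in wild-type replicates 1 to 3 and 0.386 to 0.449 times in the knockout, but 0.806 times in wild-type replicate 4, whose Cd3e and Cd3g counts were 24 and 63.

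The genes with a course over the 8 libraries most like that of summed Cd3e and Cd3g were sought among 12009 others. The closest was Sla2, an adaptor that restrains T cell receptor signalling, at a root-mean-square distance of 0.0981 on the centred log2 CPM scale. Gimap6 and Gimap4, GTPases of lymphocytes, lay at 0.138 and 0.149, the inhibitory receptor Lag3 at 0.139 and Lat, the scaffold downstream of the receptor, at 0.165. Among the 10 genes the distance was 0.159 for Cd7, 0.178 for Gzma and 0.182 for Itgae, and it was largest for Cd4 at 0.705 and Cd8b1 at 0.494, the 2 genes with the fewest counts. Gimap4 illustrates the course, with 27.0, 28.6, 22.5 and 3.08 CPM in wild type and 49.4, 23.1, 122 and 15.7 CPM in knockout mice.

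Reference promoters (250 bases before to 50 after the start, RefSeq on GRCm38.p6) were held for 6 of the 10 genes, and a few stretches are shown because these genes moved together over the libraries. Factors of the RUNX, ETS, T-box and E-box families act in T cells, and a motif of each was searched on both strands. The 6 genes had 7 promoters, 2 of them of Lck. A gene counts if any of its promoters matched, while the percentages are of single promoters. The RUNX letters TGTGGT were present for 3 of 6 genes and in 16.8 percent of 32851 promoters. The ETS letters AGGAAG were present for 2 genes and in 35.4 percent of promoters. The E-box letters CAGGTG were present for 4 genes and in 20.2 percent of promoters. The T-box letters GGTGTGA were present for 0 genes and in 3.98 percent of promoters. Windows of 30 bases are given with the match in capitals, RUNX for the granzymes (chr13:113100932-113101231 and chr14:56262285-56262584) and for Lck (chr4:129573592-129573891), and E-box for Cd3g (chr9:44980382-44980681), all genes of the minus strand.
Gzma: gagaagaacaaaACCACAtcctttgcactc
Gzmb: tgtgggttctgcTGTGGTtacttcatgatt
Lck: gtgctggaggctTGTGGTtgggttgctggg
Cd3g: agagggcggagaCACCTGgtattgcctcta
A match is no evidence that a factor binds there.

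Wider lists of T cell genes were examined in the same way. The receptor chain genes Trac, Trbc1, Trbc2 and Trdc were not found by symbol, so these chains were not measured. Cd2 and Cd28, of the same list, had too few counts to be tested. Of 16 tested genes of the T cell receptor and its proximal signalling, Cd6 rose 4.08-fold, from 3.39 ± 2.05 to 13.8 ± 9.60 CPM (SD, n = 4; edgeR adjusted p = 0.0419), and Tcf7, a transcription factor of both T cells and crypt epithelium, fell 1.44-fold from 35.1 ± 5.83 to 24.4 ± 4.95 CPM (edgeR adjusted p = 0.0296). The call of Cd6 was lost without knockout replicate 3 (edgeR adjusted p = 0.0894), and in 5 other alternatives; that of Tcf7 was lost without wild-type replicate 1 or 4 (edgeR adjusted p = 0.0673 and 0.0821) and without replicate 4 of both genotypes (0.0920). Skap1, an adaptor of T cell adhesion, was at 2.34 ± 1.38 and 7.32 ± 5.12 CPM (edgeR adjusted p = 0.0649). With genotype as the sole term edgeR called 1 gene of the list higher and 1 lower. The shares over all tested genes were 24.2 and 23.1 percent. In the list 7 genes were called higher when numbers were blocked, 4 when knockout replicate 4 was left out and 0 when knockout replicate 3 was. Those fits called 28.4, 21.9 and 24.5 percent of all tested genes higher. The list's median log2 fold was 1.15, or 0.45 without knockout replicate 3. Its summed level ran from 120.1 to 206 CPM in wild type and from 129 to 583 CPM in knockout mice.

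Of 14 tested cytotoxic effector genes 0 were called by edgeR (3 at an unadjusted p under 0.05), with a median log2 fold of 1.41. EdgeR called 47.3 percent of all tested genes in either direction. DESeq2, with its own filter, called 5 genes of the full list of 17 in either direction, and 42.2 percent of all genes it tested. Without knockout replicate 4 edgeR tested 17 and called 4, all higher, where 21.9 percent of all tested genes were called higher. Without knockout replicate 3 edgeR tested 15 and called 0 (2 at an unadjusted p under 0.05), and the median was 0.60. Gzmk (log2 fold 2.09), Klre1, a killer cell lectin-like receptor (2.27), and Fasl, the death ligand (1.70), had the smallest p-values, with edgeR adjusted p-values of 0.0688, 0.0602 and 0.0767. All 3 were called with the replicate block (edgeR adjusted p = 0.0249, 0.0438 and 0.00673) and in DESeq2 (DESeq2 adjusted p = 0.0250, 0.0192 and 0.0294). With the block 7 genes of the list were called higher, where 28.4 percent of all tested genes were. The list's summed level was 38.4 to 223 CPM in wild type and 116 to 823 CPM in knockout mice. It was again lowest in wild-type replicate 4 and highest in knockout replicate 3.

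Of 17 tested genes of mucosal residence and homing 0 were called higher in the knockout by edgeR and 1 was called lower. The shares over all tested genes were 24.2 percent higher and 23.1 percent lower. The activating receptor gene Cd244a and the chemokine receptor gene Cxcr3 had log2 folds of 1.28 and 1.85 (edgeR adjusted p = 0.0557 and 0.0994), and were called with the block (edgeR adjusted p = 0.0137 and 0.0377). With the block 4 genes of the list were called higher, and 2 without knockout replicate 4. Over all tested genes those fits called 28.4 and 21.9 percent higher. The list's median log2 fold was 0.94, or 0.18 without knockout replicate 3.

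Of 7 tested helper and regulatory T cell genes 1 was called higher by edgeR and 0 lower. Across all tested genes 24.2 percent were called higher and 23.1 percent lower. The list's median log2 fold was 1.33, or 0.30 without knockout replicate 3. Gata3 and Il7r had log2 folds of 1.33 and 1.37 (edgeR adjusted p = 0.0882 and 0.127), and both were called with the block (edgeR adjusted p = 0.0321 and 0.0125). Foxp3, Il17a, Ccr6 and Cd40lg had too few counts to be tested.

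Epithelial genes that attract, retain or feed intraepithelial T cells took another course. Of 15 tested, 10 rose and 0 fell, with a median log2 fold of 2.19, against 24.2 percent of all genes called higher. Il15, the cytokine that keeps these T cells alive, rose 10.8-fold from 2.71 ± 0.893 to 29.1 ± 15.7 CPM (SD, n = 4; edgeR adjusted p = 0.00121). Its values were 3.74, 2.78, 1.55 and 2.75 CPM in wild type and 44.2, 39.1, 9.57 and 23.4 CPM in knockout mice, where every library was above every wild-type one. Btnl4, a butyrophilin-like gene, rose 3.84-fold from 32.7 ± 7.51 to 125 ± 30.1 CPM (edgeR adjusted p = 0.00108) and Cxadr, the epithelial ligand of the T cell protein JAML, 1.95-fold from 89.4 ± 6.42 to 174.8 ± 27.6 CPM (edgeR adjusted p = 0.00116). The other 7 that rose were Ccl25, Hnf4g, Btnl1, Btnl2, Btnl6, H2-T3 and Ccl20, while Cdh1, which encodes E-cadherin, had a log2 fold of −0.03 (edgeR adjusted p = 0.839). Without knockout replicate 3 the count was 10 higher and 1 lower, and without wild-type replicate 4 it was 9 higher.

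Enterocyte transcripts moved with this list: 12 of 12 enterocyte markers rose, with a median log2 fold of 3.30 and a summed level of 1838 to 11035 CPM in wild type and 26873 to 90637 CPM in knockout mice. Lct, the lactase gene, rose 27.5-fold, Fabp1, a fatty acid binding protein, 12.6-fold and Mgam, a disaccharidase, 3.40-fold (edgeR adjusted p = 0.00115, 0.00229 and 0.00118). Of 11 general epithelial markers 4 rose and 2 fell, while 24.2 percent of all tested genes were called higher and 23.1 percent lower. Vil1 (3.36-fold) and Krt20 (5.46-fold) were among the higher and Krt18 (1.55-fold) among the lower (edgeR adjusted p = 0.00161, 0.00605 and 0.0100). The part of enterocyte content in the rise of the epithelial partner genes was not tested. Across the knockout libraries Il15 and the enterocyte sum were lowest in replicate 3, the library with the highest Cd3g. Wild type differed: the enterocyte sum was 10879, 11035, 3551 and 1838 CPM in replicates 1 to 4. That is the order of Cd3g, with replicate 4 lowest in both, while Il15 was lowest in replicate 3. A relation between these levels was not tested.

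Markers of other cells that a crypt preparation could hold gave 0 edgeR calls in 3 of 4 lists. Those 3 held 0 genes at an unadjusted p under 0.05 and 0 DESeq2 calls, while edgeR called 47.3 percent of all tested genes. Genes of fibroblasts, muscle and endothelium (0 of 9 called) summed to 38.8, 47.4, 226 and 71.1 CPM in wild type and 45.4, 36.2, 264 and 253 CPM in knockout mice, high in replicate 3 of both genotypes and in knockout replicate 4. Of that list Pecam1, Kdr and Vim had the smallest p-values (log2 folds 0.92, 1.94 and 0.48, edgeR adjusted p = 0.124, 0.193 and 0.353). With the replicate block Pecam1, an endothelial adhesion gene, was called higher (0.83, edgeR adjusted p = 0.0320). It was the 1 call of the list in that fit, where 28.4 percent of all tested genes were called higher. Macrophage and dendritic cell genes (0 of 10) summed to 35.2 to 86.5 CPM and 22.3 to 124 CPM, highest in knockout replicate 3. Cd68, Itgam and Mrc1 had log2 folds of −0.58, 0.42 and −0.20 (edgeR adjusted p = 0.303, 0.434 and 0.575). With knockout replicate 3 left out, 1 of the 10 was called lower, where 3144 of 12979 tested genes were. B and plasma cell genes (0 of 2 tested) summed to 4.66 to 13.1 and 1.77 to 10.8 CPM, with Cd79b at −0.58 and Jchain at −0.59 (edgeR adjusted p = 0.326 and 0.502). Wild-type replicate 3 was thus high in stromal and macrophage transcripts without being high in the T cell genes, and knockout replicate 3 was high in each of them; the part of these cells in the T cell levels was not tested.

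**Figure D5:**
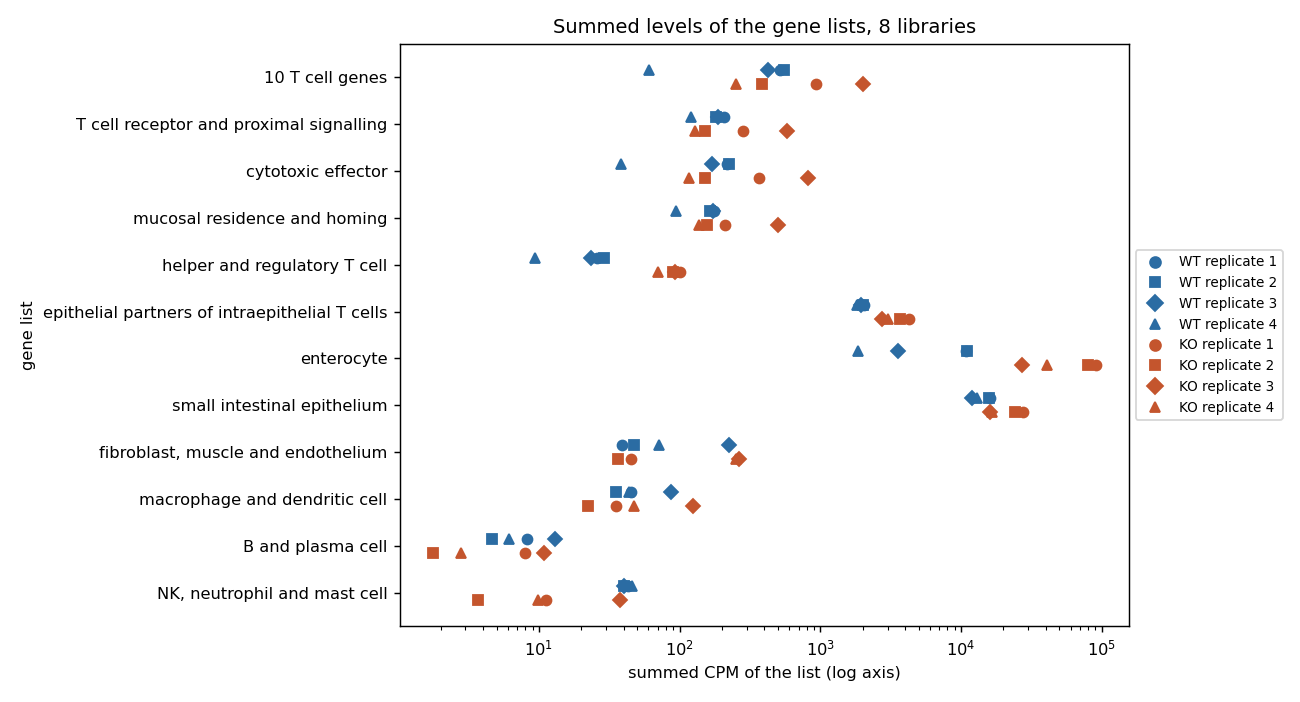
Summed CPM of each gene list in each library on a log axis; blue is wild type, orange is knockout and the marker shape is the replicate number. The T cell lists are lowest in wild-type replicate 4 and, except for the helper list, highest in knockout replicate 3; the enterocyte, epithelial partner and helper lists do not overlap between genotypes.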

How the data were processed

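RNA was extracted with TRIzol, per the labels' protocols. HISAT2 and DESeq2 are named without role or version in the submitters' processing notes; for the counter, genome build, annotation and strandedness the sources used here give nothing. The deposited read counts were taken as estimated counts, because 8.04 to 9.18 percent of values were not whole, and were rounded. The authors' second set of values, with no unit in the file headers, was taken to be FPKM, since its ratio to the count followed the library total (median CV 0.771 percent), and served only to rank levels between genes. The authors' group means were not used.

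The test was edgeR 4.0.16 under R 4.3.3 (TMM factors, filterByExpr, glmQLFit, glmQLFTest; genotype as the sole term; adjusted p threshold 0.05 over 12908 genes; standard error as the log2 fold over the square root of F), run on simulated counts first. DESeq2 1.42.0 was an alternative. Ratios used 0.5 added counts and an exact permutation test over libraries (70 assignments, smallest two-sided p 0.0286). Genes named are the 10 genes, up to 3 per list with the smallest p, and the 5 nearest in course to summed Cd3e and Cd3g (mean of at least 20 counts); the 4 Y-linked genes were only summed, and other genes were named after their values were seen. Some genes the rule names are not reported here. Genes and lists were chosen with earlier results of these data known. Same-numbered libraries correlated at 0.35 to 0.535 and differently numbered ones at −0.516 to 0.496. These ranges overlap, so the pairing of samples by number in the block fit is an assumption. The labels do not say whether the samples of a genotype came from separate mice, and a p-value therefore reflects only how much these 8 samples spread.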

Additional observations from a re-analysis of the deposited data

Results flagged for a closer look

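Single libraries lay far from the others of their group in 3 of the 30 gene or ratio groups examined. The rate of about 1 in 20 by chance assumes independent groups of normally spread values. The genes moved together and the values were not log-transformed, so the count cannot be set against that rate. Cd4 was 12.7 CPM in knockout replicate 3, against 2.12 to 2.25 CPM in the other 3 knockout libraries. Summed Cd3e and Cd3g over Epcam were 0.153 in knockout replicate 3, against 0.0124 to 0.0266 in the others of that group. The same ratio was 0.00539 in wild-type replicate 4, against 0.0355 to 0.0390 in the other wild-type libraries.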

How the results depend on the processing

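The count of 0 T cell genes called became 4 with the replicate block and 1 with DESeq2, and ranged from 0 to 1 when libraries were left out; it stayed 0 with the other scalings and filters run, where 8 of the 10 genes were tested at a mean of at least 50 counts. The block gave log2 folds of 1.44 for Cd8a, 1.46 for Cd8b1, 1.37 for Cd4 and 1.11 for Lck, and DESeq2 gave 1.42 for Cd8b1, which ranged from 1.07 to 1.70 when libraries were left out. All 10 folds were above 0 under every alternative that tested them. Calls over the table ranged from 2312 to 3184 higher and from 2380 to 3228 lower when libraries were left out. The ratio Cd8b1 to Cd8a turned to −0.0117 with a pseudocount of 2. When libraries were left out, the log2 differences in ratio ran from −0.178 to 0.252 (Cd8b1 to Cd8a), −0.121 to 0.582 (Cd4 to CD3), −0.0561 to 0.0760 (granzymes to CD3), −0.0255 to 0.398 (CD3 to Ptprc) and −0.406 to 0.801 (CD3 to Epcam), so none kept its direction. The sign-flip test of the 4 pairs, an exact test that cannot go below 0.125, gave p from 0.375 to 0.875. Itgam ran from −0.0642 (without knockout replicate 3) to 0.713, and Kdr from −0.0981 (without knockout replicate 4) to 2.45. The cause of these changes was not tested. Depth limits Cd4 and Cd8b1 most among the 10, with 8 counts each in wild-type replicate 4.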

Other observations

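Transcripts of natural killer cells, neutrophils and mast cells were mostly lower in the knockout, with a median log2 fold of −1.27. EdgeR called 1 gene higher and 1 lower, where 24.2 and 23.1 percent of all tested genes were. Of 7 tested genes, Klrb1c, which encodes the NK1.1 receptor, rose 5.32-fold from 1.06 ± 0.628 to 5.57 ± 4.6 CPM (SD, n = 4; edgeR adjusted p = 0.0318), and Ly6g, a neutrophil surface gene, fell 5.16-fold from 22.0 ± 10.1 to 4.28 ± 3.20 CPM (edgeR adjusted p = 0.0132). Ly6g was at 24.9, 25.9, 7.23 and 29.95 CPM in wild type and 2.15, 0.972, 7.38 and 6.64 CPM in the knockout, so wild-type replicate 3 lay at the knockout level. The call of Klrb1c was lost when any wild-type library, or knockout replicate 1 or 3, was left out (edgeR adjusted p from 0.0517 to 0.0867). Ncr1, another natural killer cell gene, went the other way on 0 to 14 counts per library (log2 fold −1.17, edgeR adjusted p = 0.322). Csf3r, the receptor of the neutrophil growth factor, was at 7.54, 5.38, 26.0 and 8.75 CPM in wild type and 0.172, 0.265, 9.67 and 0.374 CPM in the knockout. It was not called (log2 fold −2.21, edgeR adjusted p = 0.132), but was called lower with the replicate block (−3.22, edgeR adjusted p = 0.00448) and without knockout replicate 3 (−5.43, edgeR adjusted p = 0.00108). The summed level of the list was 40.3 to 45.9 CPM in wild type and 3.71 to 37.4 CPM in the knockout, where replicate 3 was the highest. Without that library 5 of the 7 genes were called lower, where 3144 of 12979 tested genes were.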
